A study of Homo sapiens with 2 samples.

Results

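The genes described are 33 genes of cholesterol synthesis and of its control by the sterol regulatory element binding proteins (SREBPs), out of 61806 Ensembl genes counted in HEL cells, a human erythroleukemia cell line. They were taken from a list of gene names that follows the pathway. The rule itself used no values, but the list was chosen with earlier results of these data known. Of them, 32 were found by name in the FPKM values (fragment counts scaled to transcript length and library size) and CYP51A1 by its Ensembl identifier in the table of read counts. Both groups were wild-type HEL cells of this 1 line, grown in RPMI medium with fetal bovine serum. The L1 group had received the compound L1 at 1 µM for 24 h and the control group 0.5% DMSO for 24 h. The labels do not give the DMSO content of the L1 culture. Each condition has 1 library, so the values below are given with no test and no p, and no difference has a replicate check. RNA captured as mRNA from the whole culture was sequenced, so fewer cells of a type and less RNA per cell cannot be told apart.

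The DMSO library held 32556872 counts in all and the L1 library 27135647. They were scaled by the TMM method, which gave DMSO an effective size 1.16 times that of L1, so a gene at equal level has fewer counts in L1. A log2 ratio is the L1 value over the DMSO value of these scaled counts, and its exact 95% interval (Clopper-Pearson) covers counting error only. All 10 marker genes of HEL cells were counted in both libraries, with 356 to 40168 counts each and a summed level of 3356 CPM (counts scaled to a common library size) in DMSO and 3683 CPM in L1. Single markers were not all stable, with log2 ratios from -0.66 to 1.78. Of 14 marker genes of T cells, B cells, monocytes, epithelium, fibroblasts and hepatocytes, 6 were at 0 in both libraries and 12 were at 10 counts or fewer in both. The exceptions were LYZ, with 647 counts under DMSO and 486 under L1, and KRT18, with 439 and 376, and the summed level of the 14 was 34.3 CPM in DMSO and 32.1 CPM in L1.

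Cholesterol is built from acetyl-CoA in the cytosol and the membrane of the endoplasmic reticulum (ER). The mevalonate arm makes isoprenoid units, which are joined to squalene, closed to lanosterol, the first sterol, and trimmed to cholesterol. When ER cholesterol is low, SCAP carries the SREBPs to the Golgi, where a pair of proteases frees the part that enters the nucleus. INSIG proteins hold SCAP in the ER when sterols are plentiful. SREBP2 is best known for the genes of cholesterol synthesis and uptake and SREBP1 for those of fatty acid synthesis, and both act on promoters together with the general factor NF-Y.

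The genes of the enzymes were higher in the L1 library almost throughout, while those of the SREBP machinery lay on both sides of 0, with a median log2 ratio of 0.04. Of the 33 genes, 6 were at least 2-fold higher in L1, all of them enzymes: HMGCS1, MVD, LSS, CYP51A1, SC5D and DHCR7. Only TMEM97 was at least 2-fold lower. All 33 genes had at least 100 counts in 1 library. Among the genes with such counts, 3.13% passed 2-fold towards L1 and 2.92% passed it towards DMSO, against 18.2% and 3.03% of the members. With all genes at 10 counts or more as the background, the shares were 7.12% higher and 4.83% lower. For such counts across genes, and for medians, a prior count of 2 was added to each scaled count. A log2 ratio above 0 was found for 26 of the 33 members, against 46.4% of the genes with at least 100 counts. The whole counting interval lay above 0 for 21 of the 33, against 30.5% of those genes. The interval lay below 0 for GGPS1, SREBF1, ERLIN2 and TMEM97 and held 0 for the other 8. The median log2 ratio of the members was 0.57, and that of all genes with at least 100 counts was -0.03.

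The split followed the roles. The 20 enzymes had a median of 0.76, with 19 above 0, 18 of them with the whole interval above 0. The 13 genes of SREBP control and sterol transport had a median of 0.04. None was at least 2-fold higher, but at the share of 3.13% among genes with at least 100 counts, 13 genes may well hold none. Summed over the 20 enzymes, the level was 1326 CPM in DMSO and 2724 CPM in L1, which is 2.06-fold higher in L1 (log2 ratio 1.04, counting interval 1.02 to 1.06). Over the 13 other genes it was 855 CPM in DMSO and 836 CPM in L1. HMGCS1 alone supplied 31.4% of the CPM added in the enzymes, and without it their sum was still 1.76-fold higher in L1. The plot of log2 ratios shows this step between the enzymes and the other genes, with GGPS1 and PMVK as the enzymes that stay behind.

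**Figure D1:**
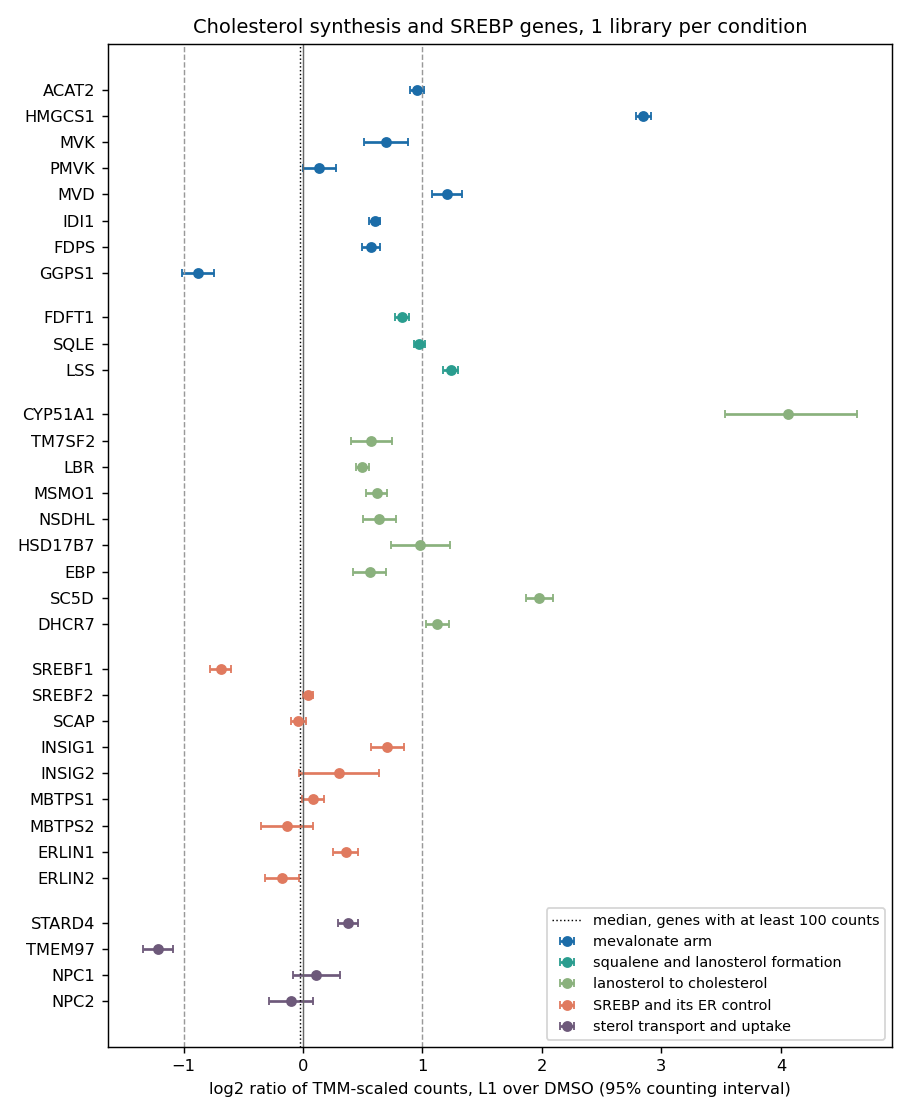
Log2 ratio of TMM-scaled counts, L1 over DMSO, for each of the 33 genes, coloured by role; the bars are exact 95% intervals for counting error, the dashed lines mark 2-fold and the dotted line is the median of the genes with at least 100 counts. CYP51A1 at 4.06 and HMGCS1 at 2.85 lie farthest to the right and TMEM97 at -1.21 farthest to the left, with 1 library per condition.

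The promoters are shown first, since the SREBPs and NF-Y act there. RefSeq sequences (GRCh38.p14) were at hand for 28 of the 33 genes, each from 250 bases before to 50 bases after the annotated start. No entry was held for ACAT2, FDFT1, SQLE, ERLIN1 and ERLIN2. The motifs searched on both strands were the NF-Y box CCAAT, which reads ATTGG on the other strand, the core of a sterol regulatory element TCACNCCAC, and the E-box CACGTG, which reads alike on both strands. Where CCAAT is followed by TGG it overlaps its own reverse complement, which was counted on each strand and occurs in IDI1 and NSDHL. The stretches below run 5′ to 3′ along each gene, with the matches in capitals. They were cut from the upstream part, so the E-boxes of LSS and INSIG1, which lie farther downstream, are not shown. They show the enzymes HMGCS1, LSS and MVD, among those at least 2-fold higher in L1, MSMO1, with 4 NF-Y boxes, the regulators INSIG1 and SREBF2, and TMEM97, the gene with the lowest ratio.
HMGCS1, chr5:43313496-43313579, minus strand: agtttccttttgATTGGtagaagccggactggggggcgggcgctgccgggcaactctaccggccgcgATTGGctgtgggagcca
LSS, chr21:46228908-46228936, minus strand: cgcggcgctctgATTGGttgcgtgggcgt
MVD, chr16:88663160-88663262, minus strand: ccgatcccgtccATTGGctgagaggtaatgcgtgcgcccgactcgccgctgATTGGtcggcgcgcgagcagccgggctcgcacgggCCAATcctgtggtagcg
MSMO1, chr4:165327472-165327651, plus strand: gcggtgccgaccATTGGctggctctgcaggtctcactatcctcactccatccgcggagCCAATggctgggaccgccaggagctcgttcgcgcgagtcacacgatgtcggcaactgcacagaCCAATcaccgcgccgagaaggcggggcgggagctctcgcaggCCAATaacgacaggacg
INSIG1, chr7:155297696-155297724, plus strand: cgccggcctcccATTGGttgcggccgcct
SREBF2, chr22:41832960-41833015, plus strand: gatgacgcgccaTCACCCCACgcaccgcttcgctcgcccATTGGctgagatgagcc
TMEM97, chr17:28318990-28319124, plus strand: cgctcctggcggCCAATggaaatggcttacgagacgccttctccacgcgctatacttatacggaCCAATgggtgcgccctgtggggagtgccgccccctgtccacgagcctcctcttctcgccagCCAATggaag

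The stretches above were cut around the matches of chosen genes, so each holds a match by design. At least 1 NF-Y box was found in 19 of the 28 members (67.9%) and in 39.7% of the 27305 genes of the promoter table. The genes of that table were not filtered by counts, whereas every member had at least 100 counts in 1 library, so the sets are unlike. At least 2 were found in 13 of 28 members (46.4%) and in 12.9% of all genes. At least 3 were found in 8 of 28 members (28.6%) and in 3.92% of all genes. By role, a match was found in 14 of the 17 enzymes (82.4%) and in 5 of the 11 control and transport genes (45.5%). MVK and NSDHL held 5 matches each and MSMO1 held 4. MVD, IDI1, FDPS, EBP and TMEM97 held 3 each. Over all 35116 promoters of the table, of which a gene may have several, 34.6% had at least 1 match.

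The sterol regulatory element core was found in 1 of the 28 members, SREBF2, whose match starts at position -133 from the annotated start, and in 1.39% of all genes of the promoter table (1.13% of all promoters). The E-box was found in 4 of the 28 members (14.3%), LSS, SC5D, SCAP and INSIG1, and in 8.77% of all genes (7.26% of all promoters). No match means only that these letters are not in this window. Single members with extreme ratios did not follow the number of NF-Y boxes: HMGCS1 held 2, CYP51A1 held 0, and TMEM97, lower in L1, held 3. Apart from CYP51A1, members with 0 boxes had log2 ratios between -0.69 (SREBF1) and 0.50 (LBR). MVK and NSDHL, with 5 matches, were at 0.69 and 0.64. A relation over all 28 members was not tested. These matches are a description of sequence, and binding was not measured.

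**Figure D2:**
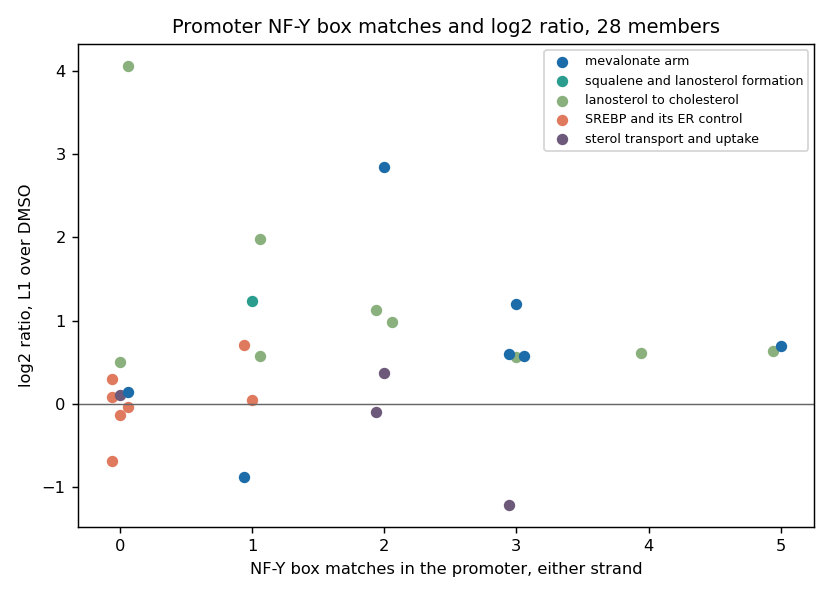
Log2 ratio of L1 over DMSO against the number of NF-Y box matches (CCAAT, either strand) in the promoter, for the 28 members with a promoter sequence, coloured by role. Members with 3 matches lie between -1.21 (TMEM97) and 1.20 (MVD), and the highest point, CYP51A1 at 4.06, has 0 matches.

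In the mevalonate arm, 7 of 8 genes had a log2 ratio above 0 and the median was 0.64. HMGCS1 encodes the cytosolic HMG-CoA synthase, which joins acetyl-CoA to acetoacetyl-CoA (chr5:43289395-43313512, minus strand, in GENCODE release 29 on GRCh38, the build of the files). It had 2265 counts under DMSO and 14085 under L1. That is 7.21-fold higher in L1, a log2 ratio of 2.85 (2.79 to 2.91). Its antisense neighbour AC114947.2, whose exons overlap, was far lower in counts, with 134 under DMSO and 389 under L1. The alternatives of scaling and of summed overlapping genes kept HMGCS1 between 2.81 and 2.90, and log2(FPKM + 1) gave 2.74.

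ACAT2, the cytosolic thiolase that supplies acetoacetyl-CoA, had 3493 counts under DMSO and 5835 under L1, a log2 ratio of 0.95 (0.89 to 1.01). It was higher in L1 by just under 2-fold, and its interval reached past 2-fold. Of the words of 31 bases in its transcripts, 50.3% also occur in other genes, where here and below a word read on either strand counts. The largest shares were in SOD2-OT1 (32.7%) and in a SOD2 model that was not among the counted genes (25.1%). Both overlap ACAT2 on the opposite strand. So does TCP1, which had 13086 counts under DMSO and 14372 under L1. With all genes joined by such overlaps summed the ratio was 0.44. MVD, the decarboxylase that makes isopentenyl diphosphate, had 769 counts under DMSO and 1526 under L1, a log2 ratio of 1.20 (1.08 to 1.33). No exon of another gene overlaps MVD (chr16:88651935-88663161, minus strand).

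The mevalonate kinase gene MVK was low, with 421 counts under DMSO and 587 under L1, a log2 ratio of 0.69 (0.51 to 0.88). IDI1, which converts isopentenyl diphosphate to its isomer, had 6097 and 7969 counts, a log2 ratio of 0.60 (0.55 to 0.65). FDPS, the farnesyl diphosphate synthase, had 2291 and 2932 counts, a log2 ratio of 0.57 (0.49 to 0.65). All 3 were higher in L1 by less than 2-fold. With all genes joined by exon overlap on either strand summed, IDI1 was at 0.34 and FDPS at 0.36. On the scale of log2(FPKM + 1) MVK was at 0.45, since the added 1 is large beside its 1.47 FPKM in DMSO and 2.37 FPKM in L1. With 0.1 added it was at 0.66. The largest part of the IDI1 sum was GTPBP4, with 8881 counts under DMSO and 8358 under L1, whose exons do not overlap those of IDI1 directly. PMVK, the phosphomevalonate kinase, was the gene of the arm nearest to equal, with 883 counts under DMSO and 838 under L1 and a log2 ratio of 0.14 whose interval reached just below 0.

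GGPS1 was the only enzyme lower in L1. It makes geranylgeranyl diphosphate and so leads away from sterols, into the prenylation of proteins. It had 1404 counts under DMSO and 659 under L1, a log2 ratio of -0.88 (-1.01 to -0.74). The size of this difference is uncertain, because 43.3% of the 31-base words of its transcripts also occur in other genes. An overlapping gene model named TBCE holds 35.4% of them and had 153 counts under DMSO and 197 under L1. Another model named TBCE, joined to GGPS1 through a chain of exon overlaps, had 1504 counts under DMSO and 1275 under L1. With the genes that hold at least 5% of its words summed the log2 ratio was -0.65, and with all genes joined by exon overlap on either strand it was -0.14.

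All 3 genes of squalene and lanosterol formation were higher in L1, with a median of 0.97. FDFT1, the squalene synthase and first step committed to sterols, had 3879 counts under DMSO and 5954 under L1, a log2 ratio of 0.83 (0.77 to 0.89). SQLE, the squalene epoxidase and a rate-limiting step of the later pathway, had 6830 and 11581 counts, a log2 ratio of 0.97 (0.93 to 1.02). LSS, the lanosterol synthase that closes the rings (chr21:46188141-46228824, minus strand), had 3142 and 6384 counts, a log2 ratio of 1.24 (1.17 to 1.30). The order of the ratios of these 3 genes followed the order of the steps in these 2 libraries. Their counting intervals did not overlap, but these cover counting error only. In the mevalonate arm the ratios did not follow the steps, with ACAT2 at 0.95, HMGCS1 at 2.85 and MVK at 0.69.

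All 9 genes of the steps from lanosterol to cholesterol had a log2 ratio above 0, each with its whole counting interval, and the median was 0.64. SC5D encodes the sterol desaturase that places the ring double bond near the end of the pathway (chr11:121292453-121308694, plus strand). It had 784 counts under DMSO and 2666 under L1, 3.94-fold higher in L1 (counting interval 3.64 to 4.27), a log2 ratio of 1.98. DHCR7, the reductase that makes cholesterol from its direct precursor, had 1439 and 2708 counts, a log2 ratio of 1.13 (1.03 to 1.22). No exon of another gene overlaps SC5D or DHCR7.

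CYP51A1, the lanosterol demethylase that starts the trimming, had the highest ratio of all members and the least secure one. It had 31 counts under DMSO and 446 under L1, a log2 ratio of 4.06 (3.53 to 4.63). Of the words of its transcripts, 83.0% also occur in other genes, 78.7% in the overlapping gene model AC000120.2 on the same strand, which was at 0 counts in both libraries. With the genes that share at least 5% of its words summed the log2 ratio was 3.46. With all genes joined by exon overlap it was 0.81, but CYP51A1 made up 2.41% of the DMSO counts of that sum, most of which belonged to KRIT1, with 1250 counts under DMSO and 1488 under L1. It was listed with no FPKM value. Without CYP51A1, 5 members were at least 2-fold higher in L1 and the median of the other 32 was 0.56.

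The other genes of these steps were higher in L1 by less. HSD17B7, a ketosteroid reductase of the demethylation complex, had 215 counts under DMSO and 366 under L1, a log2 ratio of 0.98 (0.73 to 1.23). It shares 22.7% of its words with other genes, most with the pseudogene HSD17B7P2 (159 and 166 counts), and the sum of the genes that share its words gave 0.72. At its low FPKM, log2(FPKM + 1) gave 0.65 and log2(FPKM + 0.1) gave 0.93. NSDHL and MSMO1 act in the same demethylation. NSDHL had 774 and 1040 counts (log2 ratio 0.64, 0.50 to 0.78), and MSMO1 had 1831 and 2421 counts (0.62, 0.53 to 0.70).

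EBP, the sterol isomerase, had 745 counts under DMSO and 946 under L1, a log2 ratio of 0.56 (0.42 to 0.70). The sterol reductases TM7SF2 and LBR, which act on the same double bond, were alike in ratio but far apart in counts. LBR, also a lamin receptor of the nuclear envelope, had 4636 and 5644 counts (0.50, 0.44 to 0.55). TM7SF2 had 490 and 628 counts (0.57, 0.40 to 0.74), and 0% of its words occur in other genes. VPS51, which overlaps it on the same strand, had 2041 counts under DMSO and 1397 under L1. The log2 ratio of TM7SF2 and VPS51 summed was -0.11. TM7SF2 made up 19.4% of the DMSO counts of that sum, so the sum mostly reflects VPS51 and does not give the direction of TM7SF2.

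FPKM values, which are per length of transcript, allow levels to be set side by side between genes. Among the 19 enzymes with an FPKM value, levels in DMSO ran from 1.41 FPKM (HSD17B7) to 49.9 FPKM (SQLE), a 35.3-fold span. SQLE was first of the 19 in both libraries, at 49.9 FPKM in DMSO and 98.1 FPKM in L1. HMGCS1 moved from rank 13 at 10.8 FPKM to rank 3 at 77.5 FPKM, the largest change of place. GGPS1 moved from rank 12 at 11.6 FPKM to rank 17 at 6.31 FPKM. Between the log2 ratio and the FPKM in DMSO, Spearman's rho over the 32 members was 0.0088, given as a description only, since the points come from the same pair of libraries and share the DMSO value.

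The genes lowest in DMSO among the enzymes stayed low in L1. HSD17B7 was at 1.41 FPKM in DMSO and 2.79 FPKM in L1, and MVK at 1.47 and 2.37 FPKM. SC5D, at 2.45 FPKM in DMSO, reached 9.67 FPKM in L1. Besides SQLE, the levels in DMSO were led by IDI1 at 44.7 FPKM and ACAT2 at 41.6 FPKM, which were at 67.7 and 80.6 FPKM in L1. The plot of FPKM values places HMGCS1 and SC5D beyond the 2-fold line and apart from most other enzymes, which lie along it or between it and the line of equal levels.

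**Figure D3:**
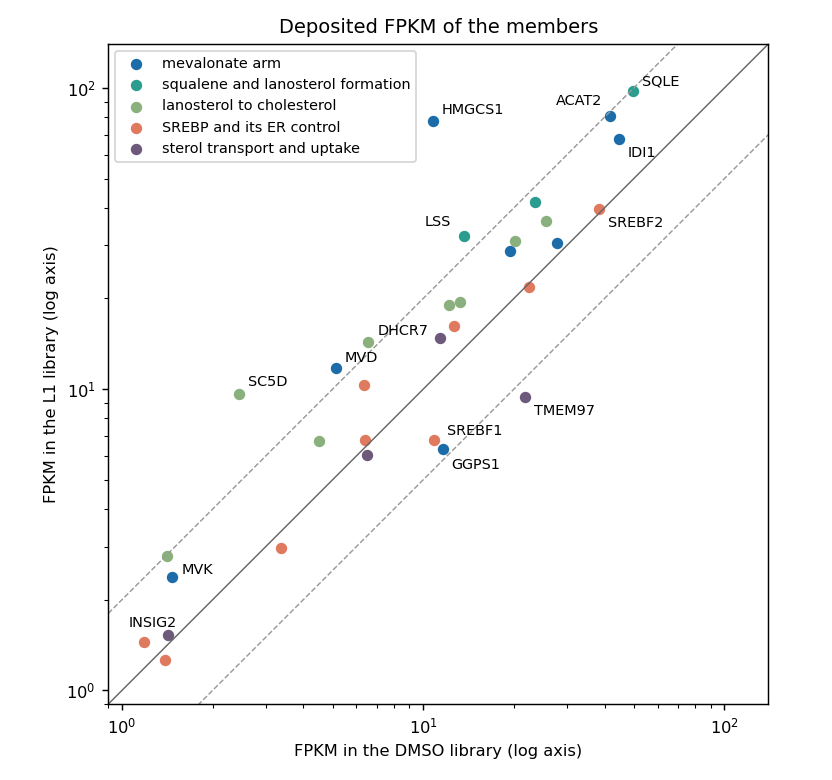
Deposited FPKM in the L1 library against that in the DMSO library, both on log axes, for the 32 members with an FPKM value, coloured by role; the solid line marks equal levels and the dashed lines 2-fold. HMGCS1 (10.8 and 77.5 FPKM) and SC5D (2.45 and 9.67 FPKM) lie well above the upper line and TMEM97 (21.8 and 9.39 FPKM) below the lower one.

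Among the 9 genes of the SREBPs and their control in the ER, none was at least 2-fold apart and the median log2 ratio was 0.04. Of the genes with at least 100 counts, 3.13% were at least 2-fold higher and 2.92% lower, so 9 genes may well hold none. SREBF2, the gene of SREBP2 itself, had 9239 counts under DMSO and 8209 under L1 from the larger and the smaller library, a log2 ratio of 0.04 whose interval reached just below 0 and up to 0.09. Its level was 38.5 FPKM in DMSO and 39.6 FPKM in L1, the highest of the control genes in both. SREBF1, the gene of SREBP1, was lower in L1, with 2853 counts under DMSO and 1526 under L1, a log2 ratio of -0.69 (-0.78 to -0.60). Its exons overlap those of RAI1 on the opposite strand, which had 2442 and 1442 counts, also lower in L1 (-0.55), and both summed gave -0.62.

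SCAP, the carrier of the SREBPs, had 4499 counts under DMSO and 3777 under L1, a log2 ratio of -0.04 (-0.10 to 0.02) that turned to 0.01 when total counts were used for scaling. The Golgi proteases that cut the SREBPs were near equal too. MBTPS1, which makes the first cut, had 2099 and 1917 counts, a log2 ratio of 0.08, and MBTPS2, which makes the cut within the membrane, had 394 and 310 counts, a log2 ratio of -0.13, with intervals that held 0. The mRNA level does not show how much SREBP was cut, which was not measured.

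The INSIG and ERLIN genes lay on both sides of 0. INSIG1, which holds SCAP in the ER and is itself a known target of the SREBPs, was higher in L1, with 736 counts under DMSO and 1034 under L1, a log2 ratio of 0.70 (0.57 to 0.84). No exon of another gene overlaps INSIG1. INSIG2, its relative, had only 148 and 157 counts, a log2 ratio of 0.30 whose interval from -0.03 to 0.63 held 0. ERLIN1 and ERLIN2 form an ER membrane complex that binds cholesterol and takes part in the degradation of ER proteins. ERLIN1 had 1403 and 1552 counts (log2 ratio 0.36, 0.25 to 0.46), and ERLIN2 had 934 and 713 counts (-0.18, -0.32 to -0.03). ERLIN1 was thus the higher and ERLIN2 the lower of the pair in L1. ERLIN1 overlaps CHUK on its own strand (1622 and 1459 counts), and their sum gave 0.21.

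Of the 4 genes of sterol transport and uptake, TMEM97 stood apart. TMEM97 is an ER and lysosomal protein that binds sterols and the lysosomal transporter NPC1, and it is known as a target of SREBP2 (chr17:28319095-28328685, plus strand). It had 2027 counts under DMSO and 754 under L1, which is 0.431 times the DMSO level, a log2 ratio of -1.21 (-1.34 to -1.09). It was lower in L1 while 19 of the 20 enzymes were higher, and its promoter, printed above, holds 3 NF-Y boxes. IFT20, which overlaps it on the opposite strand, had 376 and 398 counts (0.30), and both summed gave -0.85, so that TMEM97 then no longer passed 2-fold.

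STARD4, which carries cholesterol between membranes, was higher in L1, with 2056 counts under DMSO and 2301 under L1, a log2 ratio of 0.38 (0.29 to 0.46). Summed with all genes joined to it by exon overlap on either strand, of which it made up 52.4% of the DMSO counts, its log2 ratio was -0.0031. Most of the rest of that sum was NREP, with 1833 counts under DMSO and 1052 under L1. NREP was joined through a chain of overlaps, and its exons do not overlap those of STARD4 directly. NPC1 and NPC2 hand cholesterol out of the lysosome. NPC1 had 437 and 407 counts, a log2 ratio of 0.11, and NPC2 had 535 and 430 counts, a log2 ratio of -0.10, and both intervals held 0. The median of the 4 genes was 0.0041, and it turned to -0.03 when scaled by DESeq2 size factors.

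Related genes outside the list were set beside the members. Of all genes with at least 100 counts, 3.13% passed 2-fold towards L1 and 2.92% towards DMSO, so a short list may hold none. None of the 16 genes of the isoprenoid branches, which take farnesyl and geranylgeranyl units to dolichol, ubiquinone and prenylated proteins, was 2-fold apart, and their median log2 ratio was -0.07. They ran from PGGT1B, a subunit of a geranylgeranyl transferase, with 883 counts under DMSO and 574 under L1 (-0.41), to DHDDS, of dolichol synthesis, with 845 and 964 counts (0.40). A list of 22 counted genes of sterol cofactors, esterification, uptake and other regulators had a median of 0.10, with 2 at least 2-fold higher and 0 lower in L1. The 2 were CYB5B, a cytochrome b5 of the outer mitochondrial membrane, with 1300 and 3238 counts (1.53), and PAQR3, a Golgi protein that binds SCAP, with 794 and 1894 counts (1.47). PAQR3 was named after its value was seen.

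The 15 counted genes of fatty acid synthesis had a median of 0.07. Of these, 1 was at least 2-fold higher in L1 and 0 lower, where 3.13% and 2.92% of all genes with at least 100 counts were. It was HACD3, a dehydratase of fatty acid elongation, with 1912 counts under DMSO and 5055 under L1 (1.62). The 7 counted genes of the LXR list, which LXR nuclear receptors switch on when oxysterols are plentiful, together with the receptors themselves, had a median of -0.13, with 0 at least 2-fold higher and 2 lower in L1. Their highest was SMPDL3A, a lysosomal phosphodiesterase, at 0.41. The plot of members by role shows the medians of the 3 groups of enzymes at 0.64, 0.97 and 0.64, to the right of those of the 4 lists, which lay between -0.13 and 0.10.

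**Figure D4:**
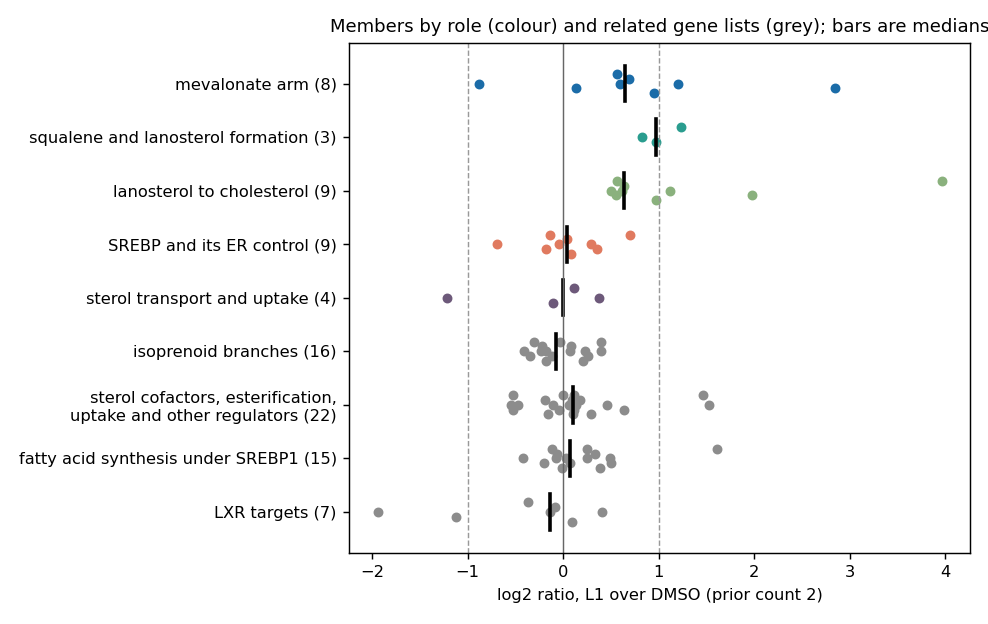
Log2 ratio of L1 over DMSO with a prior count of 2 for each gene (points) of the role groups (colour) and of the 4 related lists (grey), with the number of genes in brackets; the black bars are medians and the dashed lines mark 2-fold. The groups of enzymes have medians of 0.64, 0.97 and 0.64, and the 4 lists have medians from -0.13 to 0.10.

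Members differ in how much sequence they share with other genes. In GENCODE release 29, 19 members have exons that overlap those of another gene, 6 of them on the same strand, and 14 have none. Of the 33, 20 share less than 5% of their words with other genes, and 3 of these were at least 2-fold higher in L1 (MVD, SC5D and DHCR7). With all genes joined by exon overlap on either strand summed, the median of the members was 0.36. The sources used here do not say whether the counting used the strand. The plot of ranges shows that CYP51A1, GGPS1, TM7SF2, ACAT2 and STARD4 had the widest ranges. HMGCS1, LSS, SC5D, DHCR7 and MVD remained above 2-fold in L1 under every alternative of scaling, prior count, FPKM scale and overlap that was run. These alternatives are not independent checks. The FPKM values of the members had the same ratios as the scaled counts, so the FPKM scales differ from them only by the number added. For MVD, SC5D and DHCR7, which no other gene overlaps, the overlap sums equal the reported value.

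**Figure D5:**
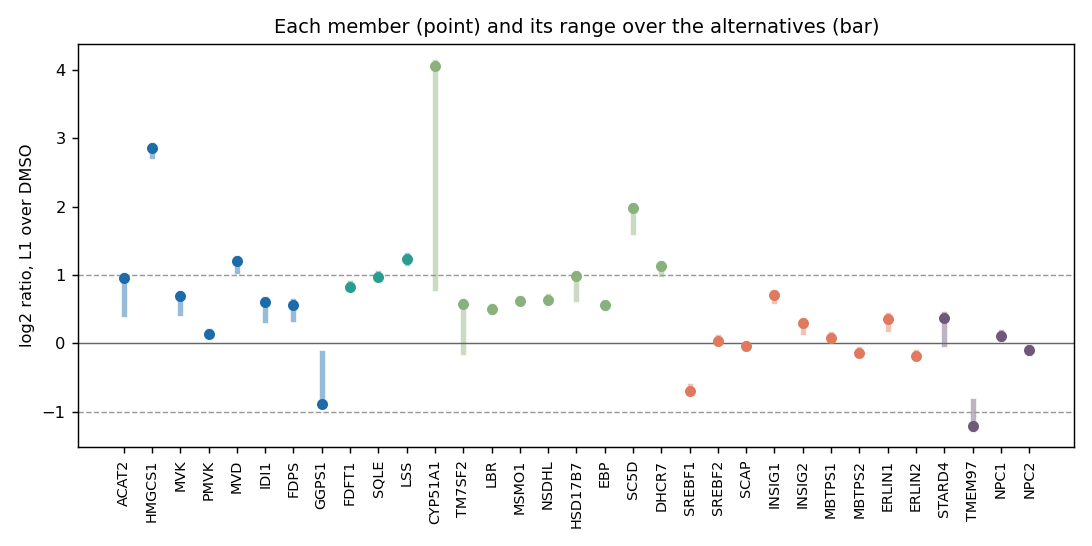
Log2 ratio of L1 over DMSO for each member (point) and the range over the alternatives of scaling, prior count, FPKM scale and summed genes (bar), coloured by role; the dashed lines mark 2-fold. The bar of CYP51A1 runs from 0.81 to 4.11 and that of GGPS1 from -0.91 to -0.14, and those of TM7SF2, STARD4 and SCAP cross 0.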

How the data were processed

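Per the labels and the methods, mRNA captured on beads was sequenced. The authors trimmed the reads (fastp 2.0 per the processing notes), aligned them to hg38 with HISAT2 2.1.0 and deposited raw read counts for 61806 Ensembl genes. FPKM values, deposited by the authors in separate files, cover 13924 genes. The processing notes also name StringTie, with no role. The program behind the raw counts, the annotation release and the use of strand are not given in the sources used here.

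Library scaling used TMM factors from edgeR 4.0.16, with DESeq2 1.42.0 size factors as an alternative (R 4.3.3). No count model was fitted. The ratios and intervals were computed in Python 3.11.15 (scipy 1.17.1, numpy 2.4.6, pandas 2.3.3). Genes with at least 10 counts in 1 library were kept (18123). Exon overlaps and 31-base words came from GENCODE release 29, which holds 58254 of the 61806 identifiers, so overlaps with later gene models were not checked. The scripts were tested on simulated data.

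The members and the lists were chosen with earlier results of these data known. All members are described, with genes of more than 13 counts whose exons overlap theirs and the highest and the lowest gene of each list with at least 100 counts. The lowest genes of 3 lists are not reported here. Alternatives were total counts, DESeq2 and upper quartile scaling, FPKM, other prior counts, filters and thresholds, and summed overlapping genes.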

Additional observations from a re-analysis of the deposited data

How the results depend on the processing

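No paired analysis was possible because there is 1 library per condition. For the same reason no library could be left out. Of 328 gene values under alternatives, 301 lay within the counting interval of the reported value and 24 moved beyond it in the same direction. The other 3 reversed: TM7SF2 at -0.11 with same-strand overlapping genes summed and -0.12 with either strand, and STARD4 at -0.0031 with either strand. These sums include the counts of the neighbouring genes, so their sign is not that of TM7SF2 or STARD4 alone. Many of the 328 values could not differ, or hardly so, and the 301 are no measure of robustness. Overlap sums equal the reported value in the 14 members with no overlap, as do word sums where no gene shares 5%. Other prior counts and FPKM with 0.1 added stay close to it by design. With either strand summed, the median of the members was 0.36 and that of the mevalonate arm 0.40. Under total counts the median of squalene and lanosterol formation was 1.02 and that of the SREBP genes 0.092. Among the 20 members with under 5% shared words, 3 were at least 2-fold higher and 0 lower, and the median of the remaining 2 genes of squalene and lanosterol formation was 0.90. The 6 members at least 2-fold higher became 9 under total counts and 8 under upper quartile scaling. At 1.5-fold, 15 members were higher and 3 lower, and at 3-fold 3 were higher and 0 lower. The count at least 2-fold lower was 0 with either-strand overlaps summed and 0 with genes summed that share words. That last setting, and leaving out CYP51A1, were chosen after seeing the data. The median over all genes kept lay between -0.04 and 0.05 under the 4 scalings. Low counts limit CYP51A1 and INSIG2 most, whose counting intervals were the widest.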

Other observations

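Genes that lie across members of the pathway on the opposite strand had values of their own. MMAB, an enzyme of cobalamin metabolism that shares its start region with MVK, had 729 counts under DMSO and 1048 under L1, a log2 ratio of 0.74, next to 0.69 for MVK. AC114947.2, antisense to HMGCS1, had a log2 ratio of 1.75, and RUSC1-AS1, antisense to FDPS, had 55 and 103 counts and a log2 ratio of 1.12. ARID4B, opposite to GGPS1, was at -0.18 and RMC1, opposite to NPC1, at 0.11. ISCA2, opposite to NPC2, was at 0.11. Among overlapping genes with fewer counts, SREBF2-AS1 had 40 and 60 counts (0.80), IDI2-AS1 had 50 and 66 (0.61), STARD4-AS1 had 34 and 24 (-0.29), and YY2, on the same strand as MBTPS2, had 49 and 38 (-0.15). The other overlapping genes had at most 13 counts in a library where they were counted. Whether reads of a member were counted on such a neighbour was not tested.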
